A study of Mus musculus with 2 samples.

Results

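Chemokine receptors are the surface receptors through which leukocytes sense gradients of chemokines, and 9 of their genes are described here: Ccr1, Ccr2, Ccr3, Ccr7, Cxcr2, Cxcr3, Cxcr4, Cxcr5 and Cx3cr1. They were taken by gene symbol, older synonyms included, from the 16390 genes named on the array, and all 9 had a probe, 1 each. The RNA came from bone marrow stromal cells of C57BL/6 mice, 1 day or 3 days after total body irradiation (TBI) with 9.5 Gy, and from the same kind of cells of unirradiated mice. Each time point was measured on 1 two-channel array, with the irradiated RNA in Cy3 and the unirradiated RNA in Cy5. The design text mentions 6 mice without saying how they were allocated or pooled, and their age, their sex and the way the stromal cells were isolated are not given in the sources used here. Because no time point had a second array, differences carry no replicate error and no p-value, and a gene is called higher or lower when its log2 ratio is at least 1 in size, that is 2-fold.

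Chemokine receptors couple through inhibitory G proteins to the actin machinery of migrating cells, and their surface level is damped by receptor kinases and arrestins. In bone marrow they set where leukocytes stay and when they leave: Cxcr4 holds stem cells and neutrophils near stromal cells that make Cxcl12, Cxcr2 favours the release of neutrophils, and Ccr2 is needed for monocytes to leave for the blood. Most of these receptors are known from blood cells rather than from stroma. Ccr1 is found on monocytes, macrophages and neutrophils, Cx3cr1 on monocytes and macrophages, Ccr3 on eosinophils, Cxcr3 on activated T and NK cells, Cxcr5 on B cells and follicular helper T cells, and Ccr7 on lymphocytes and mature dendritic cells that home to lymph nodes.

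The deposited values do not name the numerator of the ratio. They are read here as irradiated over unirradiated, which is the likely direction: target genes of p53, the factor activated by radiation damage, had a median log2 ratio of 1.57 over 22 genes at day 1, where 23 mitotic genes had 0.79, and of 1.42 over 23 genes at day 3, where 18 mitotic genes had -2.97. The p53 list ran from Pmaip1 (5.66 and 2.79) and Trp53inp1 (3.71 and 2.62) to Rrm2b (-0.47 and 0.41) and Sesn1 (-0.72 and 0.41). The mitotic list ran from Kif23 (1.90) and Ndc80 (1.22), both measured at day 1 only, to Birc5 (-0.05 and -4.70) and Ccna2 (-0.57 and -4.50). Those lists are therefore no evidence of their own direction, and if the ratio ran the other way, every "higher" and "lower" given here would be exchanged. The logarithm's base is also unstated in those sources, and folds take it to be 2. Both arrays had the same dye orientation, and a dye bias of a probe would look the same on each.

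Of the 9 receptor genes, 6 had a ratio at day 1 and 4 at day 3. At day 1 Ccr1, Cxcr2, Ccr2, Cxcr4 and Cx3cr1 were at least 2-fold higher after irradiation, Cxcr5 was within 2-fold, and none was lower. At day 3 Ccr1 and Cx3cr1 were at least 2-fold higher, Cxcr4 and Cxcr5 were within 2-fold, and none was lower. Ccr3, Ccr7 and Cxcr3 had no ratio on either array. Ccr2 and Cxcr2 had a ratio at day 1 only. In bulk RNA, a change in the number of cells of a type cannot be told apart from a change in RNA per cell.

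**Figure D1:**
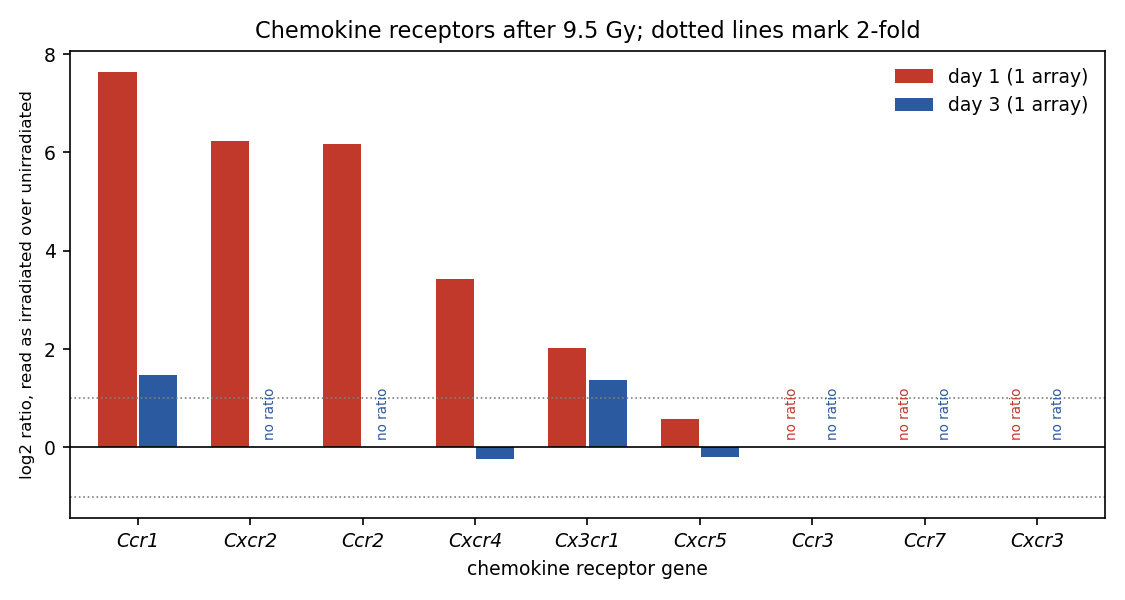
Log2 ratio of each of the 9 chemokine receptor genes at day 1 and day 3, read as irradiated over unirradiated. Each bar is 1 array and 1 probe, dotted lines mark 2-fold, and "no ratio" marks an empty entry. Ccr1 is highest at both times, at 7.64 and 1.47, and Cxcr4 and Cxcr5 lie below 0 at day 3.

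The count at day 1, 5 of the 6 receptors with a ratio, stands against a background in which, of the 10434 measured genes, 19.6% passed 2-fold upward and 11.1% downward. At day 3 it was 2 of 4, against 7.35% higher and 6.85% lower among 11404 genes. Both counts cover measured receptors and not all 9. The empty entries are not neutral either: of 634 genes measured on the day 1 array alone, 57.7% passed 2-fold upward there, against 17.2% of the 9800 genes with a ratio on both arrays. Of all genes past 2-fold at day 1, 63.9% were higher, and this share was 75.8% with the density peak of the array set to 0 and 90.3% with ribosomal protein genes set to 0. The same share at day 3 was 51.8%, or 90.3% with ribosomal protein genes at 0.

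Among the CC receptors, Ccr1 and Ccr2 had a ratio. Ccr1, which binds Ccl3, Ccl5 and related chemokines, had a log2 ratio of 7.64 at day 1 and 1.47 at day 3, that is 199-fold and 2.77-fold higher after irradiation. Its day 1 value exceeded those of 99.9% of the genes on that array, and its day 3 value those of 97.2%. Ccr2, the Ccl2 receptor of inflammatory monocytes, was at 6.17 at day 1, a 72.0-fold higher value at the 99.5th percentile. No ratio was given for Ccr2 at day 3, so whether it stayed high there is not known. Ccr3, the eotaxin receptor, gave no ratio at either time.

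Ccr1, Ccr3 and Ccr2 lie in a run of related receptor genes on mouse chromosome 9, in the order Cxcr6, Xcr1, Ccr1, Ccr1l1, Ccr3, Ccr2 in the RefSeq annotation. The ratios within this run were unequal. Ccr1l1, the Ccr1-like gene that sits between Ccr1 and Ccr3, was at 0.70 at day 1 and -0.81 at day 3, within 2-fold on both arrays. Cxcr6 and Xcr1 had no ratio. Cross-hybridisation between these similar sequences was not assessed, because probe sequences were not used here.

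Among the CXC receptors, Cxcr2 was the highest at day 1. Cxcr2, the neutrophil receptor for Cxcl1 and Cxcl2, annotated on the array by its older name Il8rb, had a log2 ratio of 6.23 at day 1, or 75.3-fold, at the 99.5th percentile. It had no ratio at day 3. Its neighbour on chromosome 1, Cxcr1, the related receptor annotated as Il8ra, was likewise measured at day 1 only and stood at 4.49.

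Cxcr4, the receptor that keeps haematopoietic cells in the marrow, was at 3.42 at day 1 and -0.23 at day 3. The first value is 10.7-fold higher after irradiation and lay above 96.9% of genes, while the second is within 2-fold and lay above 35.2% of genes. Cxcr5, the B cell follicle receptor annotated as Blr1, was at 0.57 at day 1 and -0.19 at day 3, within 2-fold on both arrays. With ribosomal protein genes set to 0, a scaling that moves all genes by 0.52 at day 1 and 0.53 at day 3, Cxcr4 and Cxcr5 turned positive at day 3, at 0.30 and 0.34, and Cxcr5 passed 2-fold at day 1, at 1.10. Cxcr3, the receptor for interferon-induced chemokines, had no ratio at either time.

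Cx3cr1, the fractalkine receptor of monocytes and macrophages, was past 2-fold at both time points. It was at 2.02 at day 1 and 1.37 at day 3, or 4.06-fold and 2.59-fold higher after irradiation. These values lay above 92.4% and 96.7% of genes. Its neighbour Ccr8 on chromosome 9 had no ratio.

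By size at day 1 the order was Ccr1, Cxcr2, Ccr2, Cxcr4, Cx3cr1 and Cxcr5. The arrays offer no error for these single probes. The only spread that could be measured, between different probes of the same gene, had a pooled SD of 0.76 at day 1 (85 genes) and 0.58 at day 3 (116 genes), and it leaves out differences between mice and hybridisations. The gap between Cxcr2 and Ccr2 was 0.07, well under that spread, and the other gaps between neighbours in the day 1 order were 1.40 to 2.75. That spread is for single probes, and a gap between probes of different genes would vary more. At day 3 Ccr1 and Cx3cr1 differed by 0.10 and Cxcr5 and Cxcr4 by 0.04, both under the spread, with a gap of 1.56 between the pairs. These are orders of ratios and say nothing of which receptor had more RNA.

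All 4 receptors with both ratios had a lower ratio at day 3 than at day 1. Of the 9800 genes with both ratios, 4699 had a higher ratio at day 3. The median difference over these genes was -0.04, so a lower ratio was common. The difference, day 3 minus day 1, was -6.17 for Ccr1, -3.65 for Cxcr4, -0.77 for Cxcr5 and -0.65 for Cx3cr1. Ccr1 and Cxcr4 were thus 71.8-fold and 12.6-fold lower at day 3 relative to day 1, and Cxcr5 and Cx3cr1 were within 2-fold. Across the 9800 genes on both arrays, 16.8% passed 2-fold downward by this difference and 12.1% upward. Of the genes past 2-fold, 41.8% were higher, or 28.3% with the density peaks at 0. The unirradiated RNA of both arrays may come from a single extract, and each array was centred on its own genes.

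**Figure D2:**
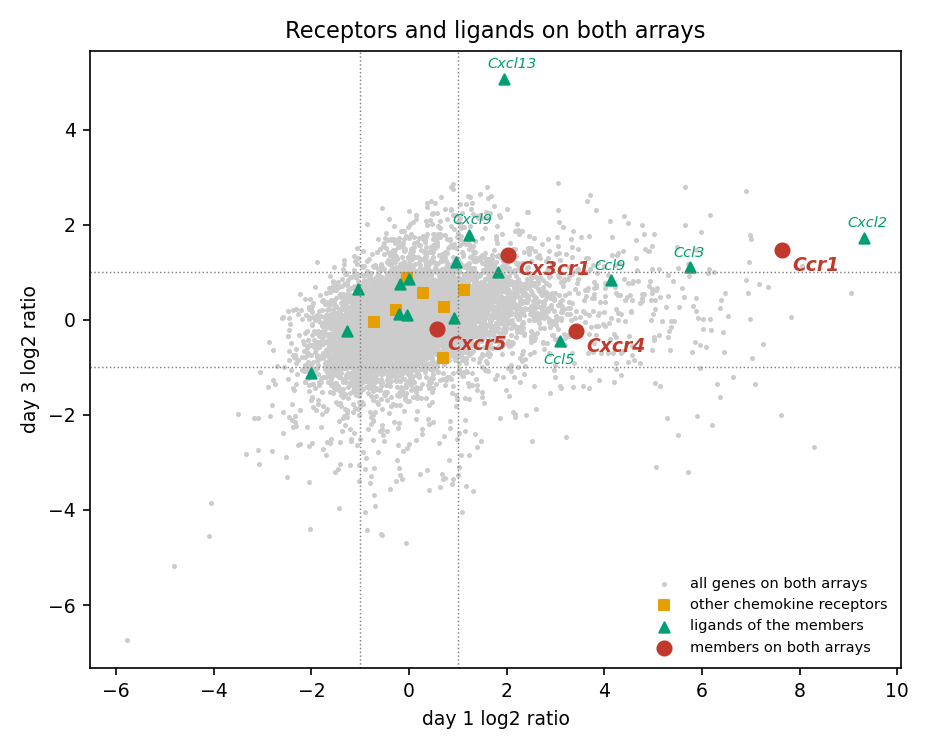
Day 1 (x axis) against day 3 (y axis) log2 ratio, read as irradiated over unirradiated, for genes with a ratio on both arrays; dotted lines mark 2-fold. Ccr1 lies at 7.64 and 1.47, Cx3cr1 at 2.02 and 1.37, Cxcr4 at 3.42 and -0.23 and Cxcr5 at 0.57 and -0.19, with their ligands as triangles and other chemokine receptors as squares.

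The genes closest to each receptor in the plane of day 1 and day 3 log2 ratios were taken from 9601 named genes, by straight-line distance over these 2 arrays. Nearest to Ccr1 were Stfa2l1, at 8.05 and 1.14, and Mrgpra2, at 7.01 and 1.69, at distances of 0.53 and 0.67. Nearest to Cxcr4 were Cmpk2 and Gsdme, both at a distance of 0.19. Cx3cr1 had Thbs1 (0.03) and Tap2 (0.12) closest, and Cxcr5, in the dense centre of the plot, had Tssk2 (0.0094) and Wdr4 (0.02). Over 2 arrays, such nearness describes the values alone.

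The 250 bases before the annotated start site are shown for the 5 receptors that were at least 2-fold higher at day 1, since these genes stood high on the same array. The sequences are from RefSeq (GRCm38.p6), which held a promoter for 7 of the 9 receptors, and read 5′ to 3′ on the strand of the gene. Capitals mark matches on either strand to the core PU.1 motif GAGGAA, the C/EBP motif TTGCNNAA, the AP-1 motif TGANTCA or the TATA box TATAAA. The windows are chr9:123968693-123968942 (minus strand) for Ccr1, chr9:124101933-124102182 (plus strand) for Ccr2, chr1:74153744-74153993 (plus strand) for Cxcr2, chr1:128592300-128592549 (minus strand) for Cxcr4 and chr9:120068297-120068546 (minus strand) for Cx3cr1.
Ccr1: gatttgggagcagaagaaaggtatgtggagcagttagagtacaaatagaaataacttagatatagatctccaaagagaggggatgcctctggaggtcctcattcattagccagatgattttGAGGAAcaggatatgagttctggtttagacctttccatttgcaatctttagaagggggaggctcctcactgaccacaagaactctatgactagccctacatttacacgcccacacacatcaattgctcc
Ccr2: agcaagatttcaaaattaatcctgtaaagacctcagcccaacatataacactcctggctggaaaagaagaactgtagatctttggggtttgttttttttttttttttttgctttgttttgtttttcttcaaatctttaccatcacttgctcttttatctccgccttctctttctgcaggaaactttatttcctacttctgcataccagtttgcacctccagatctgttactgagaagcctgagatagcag
Cxcr2: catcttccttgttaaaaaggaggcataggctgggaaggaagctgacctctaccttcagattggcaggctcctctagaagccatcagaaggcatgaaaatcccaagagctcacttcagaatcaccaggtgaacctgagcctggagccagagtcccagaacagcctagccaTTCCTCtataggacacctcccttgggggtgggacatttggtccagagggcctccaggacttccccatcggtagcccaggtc
Cxcr4: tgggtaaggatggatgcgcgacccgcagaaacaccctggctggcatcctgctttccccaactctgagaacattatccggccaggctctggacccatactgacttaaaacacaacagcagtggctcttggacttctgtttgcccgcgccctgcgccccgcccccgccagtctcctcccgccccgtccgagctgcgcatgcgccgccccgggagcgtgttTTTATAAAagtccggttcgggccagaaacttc
Cx3cr1: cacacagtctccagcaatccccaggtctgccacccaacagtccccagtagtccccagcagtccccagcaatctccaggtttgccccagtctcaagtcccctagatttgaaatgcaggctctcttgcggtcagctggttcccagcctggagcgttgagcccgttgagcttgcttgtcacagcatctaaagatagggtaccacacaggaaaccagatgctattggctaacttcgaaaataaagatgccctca

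GAGGAA matched in 2 of these 5 windows. It stood 129 to 124 bases before the start in Ccr1 and, on the opposite strand, 81 to 76 bases before the start in Cxcr2. Over all 32851 RefSeq promoter windows of the same length, 23.3% held it. The windows of Ccr3 and Cxcr3, receptors without a ratio, each held GAGGAA too, and that of Ccr3 also held TGANTCA. Cxcr4 held TATAAA 30 to 25 bases before its start, overlapping a match on the opposite strand, and 12.4% of all windows held TATAAA anywhere on either strand. TTGCNNAA and TGANTCA, present in 9.56% and 6.75% of all windows, had no match in the 5. The Ccr2 and Cx3cr1 windows had no match to any of the 4 motifs. A match is a run of letters and not a shown binding site.

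The ligands of the 9 receptors were followed as a list of 22 chemokine genes, of which 18 had a ratio at day 1 and 16 at day 3. At day 1, 9 were at least 2-fold higher, 3 lower and 6 within 2-fold, with a median of 1.09. At day 3, 5 were at least 2-fold higher, 1 lower and 10 within 2-fold, with a median of 0.79. The median over all genes is 0 by construction on each array. If the ribosomal protein genes were set to 0 instead, 10 of the 16 passed 2-fold upward at day 3, where 22.8% of all genes then did.

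Ligands of Ccr1 were mostly high at day 1. Ccl3, a macrophage inflammatory protein, was at 5.76 at day 1 and 1.11 at day 3. Ccl6 was at 5.79 at day 1 with no ratio at day 3, and Ccl9, a mouse chemokine of myeloid cells, was at 4.13 and 0.84. Ccl5, which also binds Ccr3, stood at 3.09 at day 1 and -0.44 at day 3. Ccl7, shared with Ccr2, was within 2-fold at both times, at 0.92 and 0.05. Ccl3 thus passed 2-fold at both times, as its receptor did.

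For Ccr2, its main ligand Ccl2, a monocyte attractant, was at 1.82 at day 1 and 1.00 at day 3, the second just inside the 2-fold limit (0.998 before rounding). Ccl12, a mouse Ccr2 ligand, was at 4.66 at day 1 and had no ratio at day 3. For Ccr3, the eotaxin Ccl11 was at -1.26 at day 1 and -0.24 at day 3, and Ccl24 had no ratio. The Ccr7 ligands Ccl19 and Ccl21a were not among the named genes, so this receptor and its ligands gave no value at all.

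The ligands of Cxcr2 were uneven. Cxcl2 had the highest log2 ratio of all named genes at day 1, 9.32, and 1.73 at day 3. Cxcl1 (-0.01 at day 1, 0.87 at day 3) and Cxcl3 (-0.04 and 0.11) were within 2-fold, and Ppbp, the platelet basic protein, was lower at both times, at -2.01 and -1.12. Cxcl5 had no ratio. High values of this ligand group at day 1 therefore lay in Cxcl2 alone among the 4 measured.

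The interferon-induced ligands of Cxcr3 had ratios although their receptor had none. Cxcl9 was at 1.22 at day 1 and 1.79 at day 3, Cxcl10 at 0.97 and 1.23, and Cxcl11 at -0.21 and 0.13. Cxcl9 and Cxcl10 thus passed 2-fold upward at day 3.

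In the pairs of Cxcr4, Cxcr5 and Cx3cr1 the receptor and its ligand had different profiles. Cxcl12, the stromal ligand of Cxcr4, was at -0.19 at day 1 and 0.74 at day 3, while Cxcr4 was at 3.42 and -0.23. Cxcl13, the ligand of Cxcr5 that draws B cells into follicles, was at 1.94 and 5.07, the highest of all named genes at day 3, while Cxcr5 stayed within 2-fold. Cx3cl1, the membrane-bound ligand of Cx3cr1, was at -1.05 at day 1 and 0.65 at day 3, while Cx3cr1 was at 2.02 and 1.37. Each is 1 probe on 1 array per time, and the difference between receptor and ligand was not tested.

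**Figure D3:**
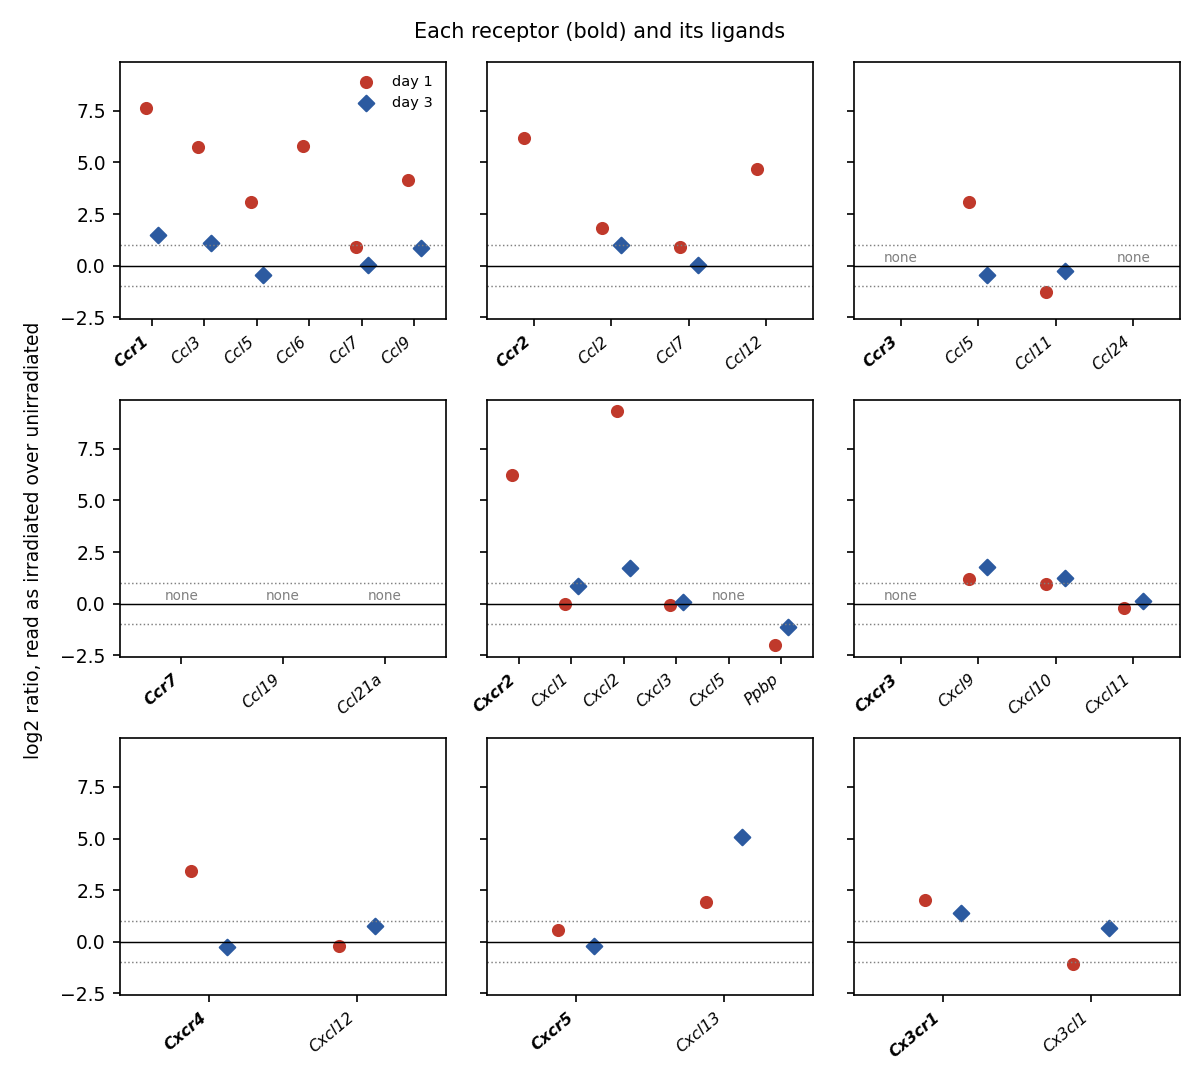
Log2 ratio, read as irradiated over unirradiated, of each receptor (bold, leftmost) and its ligands at day 1 (circles) and day 3 (diamonds); dotted lines mark 2-fold and "none" marks genes without a ratio. Cxcl2 reaches 9.32 beside Cxcr2 at 6.23 at day 1, and Cxcl13 reaches 5.07 at day 3 beside Cxcr5 at -0.19.

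Other chemokine receptors were mostly within 2-fold. Of a list of 16, 8 had a ratio at day 1, with 2 at least 2-fold higher, none lower and a median of 0.49, and 7 had a ratio at day 3, all within 2-fold, with a median of 0.28. By the mean over the arrays with a ratio, the highest were Cxcr1 (4.49 at day 1) and Ccr10 (1.12 at day 1, 0.63 at day 3), the skin-homing receptor. The lowest by this mean were Ccr1l1 (0.70 and -0.81) and Ackr4, a scavenging receptor for Ccl19 and Ccl21, at -0.72 and -0.05. With ribosomal protein genes at 0, 4 of 8 at day 1 and 3 of 7 at day 3 passed 2-fold upward, as 32.3% and 22.8% of all genes then did. Ackr3, the scavenger that also binds Cxcl12, was at -0.27 and 0.20, and Ackr1, the Duffy antigen of red cells and venules, at -0.05 and 0.88.

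Receptors for other chemoattractants had a median of 2.50 at day 1, where 7 of 11 passed 2-fold upward and 1 downward, and of 0.25 at day 3, with 2 of 7 higher and none lower. The formyl peptide receptor Fpr1 (6.28) and the complement receptor C5ar1 (5.92), both of neutrophils and monocytes, were highest and measured at day 1 only. Ltb4r2, a leukotriene receptor, was at 0.14 and -0.19, and P2ry14, a nucleotide sugar receptor, was lowest at -1.90 and -0.62.

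Genes that carry the receptor signal inside the cell had a median of 1.72 at day 1, where 10 of 17 passed 2-fold upward and none downward. At day 3 the median was 0.33, with 2 of 13 higher and 1 lower. Dock2, the Rac activator of migrating leukocytes, was at 6.17 at day 1 only, and Fgr, a myeloid Src-family kinase, at 6.99 and 1.79. Plcb3, a phospholipase (-0.11 and 0.56), and Pik3r5, a regulatory subunit of the G protein-coupled PI3 kinase (-0.57 and 0.30), had the lowest means of both times. Plcb3 nevertheless lay above the list's median at day 3. Genes that damp the receptors had a median of 1.28 at day 1 (7 of 11 higher, none lower) and 0.16 at day 3 (3 of 11 higher, 1 lower). The highest day 3 value of this list, 2.59, was that of Rgs5, a gene also on the mesenchymal stromal list. Arrb2, an arrestin (4.27 and 0.15), and Rgs2, a regulator of G protein signalling (3.63 and 0.50), had the highest means of both times. The receptor kinases Grk5 (0.63 and 0.73) and Grk3 (-0.73 and -1.999) had the lowest means, though Grk5 lay above the list's median at day 3.

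Markers of blood cells differed on the same arrays, leukocyte genes upward at day 1 and erythroid genes downward at both times. Of 20 pan-leukocyte genes, the 19 with a day 1 ratio all passed 2-fold upward, from 2.22 to 8.17 with a median of 5.09, with Cd53 (8.17) and Ptprc (7.12), the leukocyte common antigen, at the top. At day 3 none of 15 was higher and 4 were lower, with values from -3.09 to 0.93 and a median of -0.24, and Cd53 and Ptprc had no ratio. Lsp1 (2.22 and -0.26) and Ikzf1 (2.59 and -1.88) had the lowest means of both times. The day 3 median turned to 0.30 with ribosomal protein genes at 0. All 17 measured neutrophil genes passed 2-fold upward at day 1, from 4.07 to 7.97 with a median of 5.86 and the growth factor receptor Csf3r (7.97) and Cebpe (7.18), a granulocyte factor, highest, while at day 3 1 of 13 was higher and 6 lower, with a median of -0.70. The granule genes Ngp (5.50 and -2.43) and Camp (5.71 and -3.19) had the lowest means of this list. The day 1 values of Ccr1 (7.64), Cxcr2 (6.23) and Ccr2 (6.17) lay inside the neutrophil range, and those of Cxcr4 (3.42) and Cx3cr1 (2.02) below it. Ccr1, Cxcr2, Ccr2 and also Cxcr4 lay inside the pan-leukocyte range (2.22 to 8.17), so this position is not particular to neutrophil genes. Erythroid genes passed 2-fold downward in 8 of 9 at day 1, with a median of -3.18 and values from -5.77 to -0.68, and in 9 of 11 at day 3, with a median of -1.79 and values from -6.73 to -0.56. They ran from Tfrc (-0.68 and -1.25) and Fech (-1.44 and -0.56) to Hemgn (-4.80 and -5.19) and Car2 (-5.77 and -6.73). Some genes are on more than 1 list, so the lists are not independent of each other. Itgam is on the neutrophil list and on the monocyte and macrophage list. The pan-leukocyte and receptor signalling lists share their lowest day 3 value, -3.09. The part of any of these cells in the receptor values was not tested.

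Monocyte and macrophage genes mark cells known for Ccr1, Ccr2 and Cx3cr1. This list had a median of 2.97 at day 1 (7 of 12 higher, none lower, from -0.43 to 5.71). At day 3 its median was 0.81 (4 of 11 higher, none lower, from -0.70 to 1.49). Itgam, an integrin of myeloid cells, was at 5.65 at day 1, and Cd14, the endotoxin co-receptor, at 5.71 and 1.17. The macrophage growth factor receptor Csf1r was within 2-fold at 0.78 and -0.20, as were F13a1 (0.80 and -0.70) and Axl (-0.43 and 0.21), and Adgre1, Vsig4, Timd4 and Fcgr1 had no ratio. At day 1 Ccr1 (7.64) and Ccr2 (6.17) lay above the range of this list and Cx3cr1 (2.02) inside it, and at day 3 Ccr1 (1.47) and Cx3cr1 (1.37) lay inside it.

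Markers of the cells known for the remaining receptors were thinly measured. For Ccr3, 6 of 12 named eosinophil, basophil and mast cell genes had a ratio at day 1, all at least 2-fold higher with a median of 3.74. At day 3, 1 of 4 was higher and 1 lower, with a median of 0.20. The list ran from Cpa3 (5.03 and 0.41) and Ear6 (4.73 at day 1 only) to Il5ra (1.27 at day 1 only) and the eosinophil granule gene Prg2 (3.21 and -2.47), while Epx and Siglecf had no ratio. For Cxcr3, 5 of 17 named T and NK genes had a ratio at day 1, with 4 higher, none lower and a median of 2.31, and Cd3e had no ratio on either array. By the mean over the arrays with a ratio, Nkg7 (3.64 at day 1 only) and Cd3d (2.75 and 0.68) were highest and Cd28 (-0.81 and 0.24) and Cd247 (-0.83 at day 3 only) lowest. At day 3 none of 8 was outside 2-fold. For Cxcr5, B cell genes had a median of 0.17 at day 1 over 6 genes and -1.60 at day 3 over 4, and Cd79a and Pax5 had no ratio. The B cell genes ran from Blk (1.67 at day 1 only) and Ms4a1 (0.98 and -0.25) to Vpreb1 (-1.86 at day 1 only) and Vpreb3 (-3.34 at day 3 only). Dendritic cell genes, relevant to Ccr7, ran from -2.33 to 4.57 at day 1 (6 of 9 higher, 3 lower), with a median of 2.11. Their median at day 3 was -0.43 (1 of 8 higher, 2 lower). Itgax was at 3.78 and 1.15, Cd74 at 4.55 and 0.18, Zbtb46 at -1.97 and -1.35 and Batf3 at -2.33 and -2.15.

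The stromal label could not be checked, since a ratio gives no level of a marker in either RNA and no signal levels were used here. Of 20 named mesenchymal stromal genes, 18 had a ratio at day 1 and 17 at day 3, with medians of -0.87 and 0.02. At day 1, 3 passed 2-fold upward and 7 downward, and at day 3, 3 upward and 3 downward. By the mean over the arrays with a ratio, Alcam (2.31 at day 1 only) and Rgs5 (1.24 and 2.59) were highest and Col1a1 (-1.14 and -1.50) and Sparc (-1.59 and -1.12) lowest. Pdgfra was at -1.22 and -0.22, and Kitl had no ratio on either array. Endothelial genes had medians of 0.57, with 4 of 17 upward past 2-fold and none downward, and 1.62. Robo4 (1.57 and 2.27) and Flt1 (1.04 and 2.44) had the highest means of this list, and Ramp2 (-0.24 and 1.08) and Erg (-1.30 at day 3 only) the lowest. At day 3, 17 of 19 endothelial genes passed 2-fold upward and 1 downward. A link between the stromal or endothelial genes and the receptor values was not tested.

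**Figure D4:**
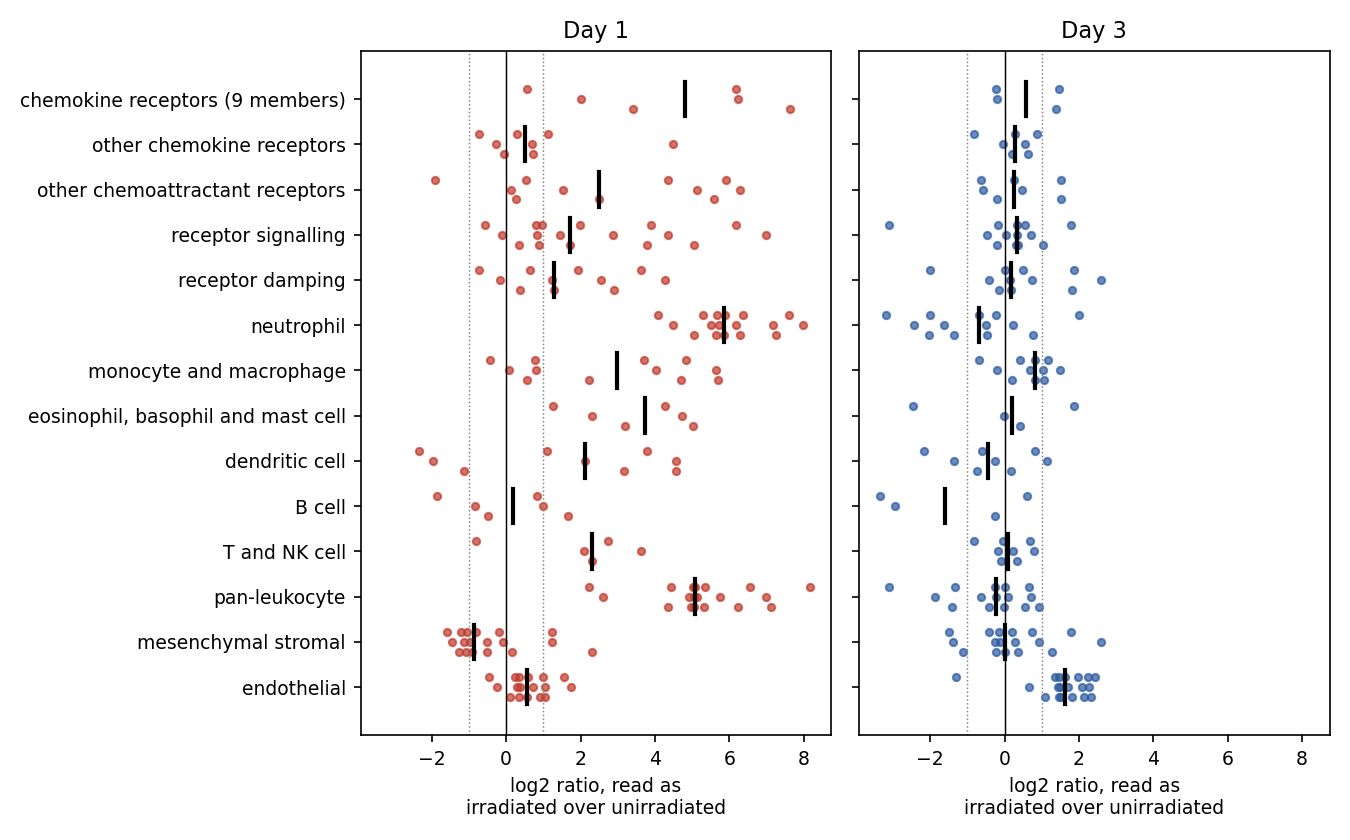
Log2 ratios, read as irradiated over unirradiated, of the measured genes of each list at day 1 (left) and day 3 (right); each point is a gene, the black bar is the list's median, and dotted lines mark 2-fold. The chemokine receptors have medians of 4.80 over 6 genes and 0.59 over 4 (the same 4 have 2.72 at day 1), beside 5.86 and -0.70 for neutrophil genes and 2.97 and 0.81 for monocyte and macrophage genes.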

How the data were processed

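The authors deposited, per probe and array, 1 log ratio between the channels or an empty entry, already centred near 0 and read as log2. Per the labels, amino allyl RNA was amplified and coupled to Cy5 (unirradiated) or Cy3 (irradiated). Scanner, background correction, normalisation, the rule behind empty entries and the direction of the ratio are not given in the sources used here. Over all probes, medians on deposit were 0.0003 (day 1) and -0.0001 (day 3). Of 23473 probes, 9515 at day 1 and 8056 at day 3 had no ratio, and 16631 carried a symbol in the platform annotation. Symbols were updated through RefSeq (12622 current, 3947 older names, 59 ambiguous and 3 unmatched kept as given). Probes of a gene were averaged, and the median over genes was subtracted (-0.01 and 0.02). A positive p53 target median above the mitotic median on both arrays set the likely direction. The 2-fold rule was tested on simulated data. Alternatives changed the centring, the probe rule, the symbols and the fold limit (1.5 or 3). Named genes were all receptors and ligands, the 2 highest and 2 lowest of each other list by the mean log2 ratio, the 2 genes nearest each receptor and a short fixed set, of which 1 gene is not reported here; other genes named (Ackr1, Ackr3, genes next to a receptor on the chromosome and markers without a ratio) were chosen after their values were seen. Where the 2 highest or 2 lowest genes of a list are named, they are ranked by the mean over the arrays with a ratio. Members and lists were chosen with earlier results of these data known. Python 3.11.15, pandas 2.3.3 and scipy 1.17.1 were used. The number of arrays limits the precision.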

Additional observations from a re-analysis of the deposited data

Results flagged for a closer look

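Receptor and ligand genes with both ratios were searched for opposite signs at day 1 and day 3 with at least 1 of the values past 2-fold, and 3 genes were found. Cxcr4 stood at 3.42 at day 1 and -0.23 at day 3, its day 3 value turning to 0.30 with ribosomal protein genes at 0. Ccl5 stood at 3.09 at day 1 and -0.44 at day 3. Cx3cl1 stood at -1.05 at day 1 and 0.65 at day 3. With 1 array per time point the difference between the times was not tested. Groups of 1 array allow no search for outlying samples.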

How the results depend on the processing

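No paired analysis was possible because each time point had 1 array and no test was run. Of 522 values recomputed under the alternatives, 516 moved by less than the spread between probes (counts by less than 1.5 times), 6 moved further, and no value past 2-fold changed sign. The centrings moved all genes by at most 0.52 at day 1 and 0.53 at day 3, less than that spread (0.76 and 0.58). Each receptor had 1 probe, so the probe rules could change it only through the centring. The count was thus largely fixed in advance and is no evidence that the receptor values are robust. Without updated symbols Cxcr2 and Cxcr5, listed by older names, drop out, and the median of the receptors became 1.37 at day 3 (0.59 with updated symbols) and -3.65 for day 3 minus day 1 (-2.21 with updated symbols), by the loss of a gene. The same setting moved the medians of other chemoattractant receptors to 1.53 at day 1 and -0.38 at day 3 and of dendritic cell genes to 0.18 at day 3. With a 3-fold limit the number of receptors higher at day 3 was 0 in place of 2, as Ccr1 and Cx3cr1 lay between 2-fold and 3-fold. The share of all genes past 3-fold was not computed. Over all alternatives run, Ccr1 ranged from 7.63 to 8.16 at day 1 and from 1.47 to 2.002 at day 3, and Cx3cr1 from 2.01 to 2.54 and from 1.37 to 1.90. Cxcr5 at day 1 was the 1 receptor value whose 2-fold call changed under another centring, from 0.57 to 1.10 with ribosomal protein genes at 0. Without replicates, intensities or a dye swap, neither the error of a ratio nor its dependence on signal could be examined.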
